A study of Mus musculus with 8 samples.

Results

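The genes described here carry names tied to the axoneme, the microtubule shaft of motile cilia, and are called axonemal by name alone. They were taken as every probe set whose platform gene symbol begins with Cfap, Dnah, Dnai, Drc or Rsph, or is Ccdc39, Ccdc40, Ak7 or Dnali1. This gave 55 probe sets of 22206 on the array, each for a different gene. The rule uses gene names alone, but it was set with earlier results of these data known. Dnaic1 and Dnaic2, the older names of the dynein intermediate chain genes, fell under the rule, and no probe set named Ccdc40 was analysed here.

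Transcript levels were measured on 8 Affymetrix arrays of total RNA from the cerebral cortex and the hippocampus of male mice aged 12 weeks. Exposed mice received clothianidin, a neonicotinoid insecticide that acts on nicotinic acetylcholine receptors, at 50 mg/kg/day, a dose the submitters give as one without observed adverse effect. Control mice received the vehicle, DMSO at 1%, and both arms were treated for 2 weeks. The 4 groups (cortex control, cortex exposed, hippocampus control, hippocampus exposed) had 2 arrays each, called 1 and 6 in controls and 3 and 6 in exposed mice after the numbers of their titles. The labels do not give the strain, the route, or whether RNA of several animals was pooled. Nor do they say that the 2 arrays of a group came from different mice, and p-values therefore reflect the spread among these arrays alone, which could be technical.

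Motile cilia beat through dynein arms, motor complexes fixed on the outer doublet microtubules. A regulatory complex between the doublets, together with radial spokes that reach toward the central pair, controls the motors. In the brain such cilia cover the ependymal cells that line the ventricles, and choroid plexus epithelium carries cilia as well. Neurons and astrocytes have a single primary cilium without dynein arms. RFX transcription factors bind X-box motifs before many ciliary genes, and the forkhead factor FOXJ1 drives the motile cilium program.

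Promoter sequence is shown for 3 genes because the X-box is the element best known to mark ciliary genes. The letters GTTGCC, the core of 1 side of an X-box, were sought on either strand in RefSeq promoters (GRCm38.p6) that run from 250 bases before to 50 after the start. Promoters were given for 47 of the 55 genes, and 15 of these (31.9%) held the letters in at least 1 promoter, against 14.1% of all 27025 genes. The forkhead letters TGTTTAC stood in the promoters of 4 of the 47 genes (8.51%) and of 4.05% of all genes. Neither motif contains the other. A match is a description of the sequence and shows no binding. The genes printed are those with the smallest p for exposure in hippocampus among promoters with a match before the start. They are Cfap300, a dynein arm assembly factor gene (chr9:8042876-8043125, minus strand), Cfap74, a gene of the central apparatus (chr4:155408940-155409189, plus strand), and Cfap20dc, a gene with a Cfap20-like domain (chr14:8666291-8666540, minus strand). The 250 bases before the start are given with the matches in capitals.
Cfap300: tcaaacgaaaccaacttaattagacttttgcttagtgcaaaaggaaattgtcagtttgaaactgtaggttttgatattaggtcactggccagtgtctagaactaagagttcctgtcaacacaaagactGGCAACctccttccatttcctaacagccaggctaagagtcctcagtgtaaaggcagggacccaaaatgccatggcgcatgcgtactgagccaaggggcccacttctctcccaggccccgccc
Cfap74: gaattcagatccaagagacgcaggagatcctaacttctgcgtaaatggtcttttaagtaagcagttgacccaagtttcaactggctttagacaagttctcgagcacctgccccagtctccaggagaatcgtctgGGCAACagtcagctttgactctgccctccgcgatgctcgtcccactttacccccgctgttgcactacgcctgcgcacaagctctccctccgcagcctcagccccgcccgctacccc
Cfap20dc: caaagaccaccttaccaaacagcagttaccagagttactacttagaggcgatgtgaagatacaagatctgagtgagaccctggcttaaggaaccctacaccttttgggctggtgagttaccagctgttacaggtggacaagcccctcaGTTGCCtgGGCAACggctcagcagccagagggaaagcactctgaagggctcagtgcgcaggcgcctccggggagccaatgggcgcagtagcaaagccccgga
Counted from the start, the match lies at -122 in Cfap300 and at -116 in Cfap74, each on the other strand, while Cfap20dc holds 1 on each strand, at -102 and -94. Of the 3 genes, Cfap300 was higher in hippocampus than in cortex in both arms, as given below, and Cfap74 and Cfap20dc passed no test. For exposure in hippocampus their unadjusted p by limma was 0.14 (Cfap300), 0.26 (Cfap74) and 0.36 (Cfap20dc). No other member called between control tissues had a promoter here that held GTTGCC. Nor had Ak7, Dnali1, Cfap45, Cfap61 or Cfap126, the members with the smallest p for exposure in hippocampus.

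All values are log2 levels that the authors normalized, so a difference of 1 is a 2-fold change, and levels of different probe sets were not set against each other. Array medians over all probe sets lay between 5.21 and 5.4, and arrays of a group correlated at 0.9867 to 0.9915. The tissue labels matched the markers: all 7 hippocampal neuron marker probe sets were higher in hippocampus in each arm, and of 8 cortical ones 6 were called higher in control cortex and 3 in exposed cortex. Over all probe sets tested, 7.63% were called higher in control cortex and 5.22% in exposed cortex. Bcl11b, named after its value was seen, was the cortical marker called higher in hippocampus in both arms. Hippocampus control 1 stood apart in the choroid plexus list, whose 13 probe sets averaged 10.11 there against 4.53 to 4.65 on the other hippocampus arrays. Cortex control 6 was also above the other cortex arrays in that list, at 5.62 against 3.89 to 4.12. Ttr, transthyretin, measured 19.51 on the first and 15.41 on the second of these arrays and 4.17 to 7.76 on the other 6. Folr1 of the same list measured 11.55 on hippocampus control 1 and 3.36 to 5.49 elsewhere.

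Of the 55 axonemal probe sets, 35 had a mean over all arrays above the filter limit of 3.937 and entered the tests, and 20 did not. Those left out include the outer arm heavy chain genes Dnah5, Dnah8, Dnah9 and Dnah17, the spoke genes Rsph1, Rsph6a and Rsph14, and Drc7 and Dnah6, which were clearly raised on single arrays. Each gene's mean over 8 arrays was subtracted to describe all 55 together. The median deviation was 0.425 on hippocampus control 1, 0.23 on control 6, 0.016 on exposed 3 and 0.148 on exposed 6. On the 4 cortex arrays it lay between -0.25 and -0.145, while over all probe sets it lay between -0.029 and 0.024 on every array. Hippocampus control 1 held the highest value of 20 genes (36.4%, against 14.8% of all probe sets) and control 6 that of 13 (23.6%, against 13.8%). A cortex array held the highest value of 7 genes (12.7%, against 45.1% of all probe sets), among them Dnaic1, which tied on 2 cortex arrays.

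**Figure D1:**
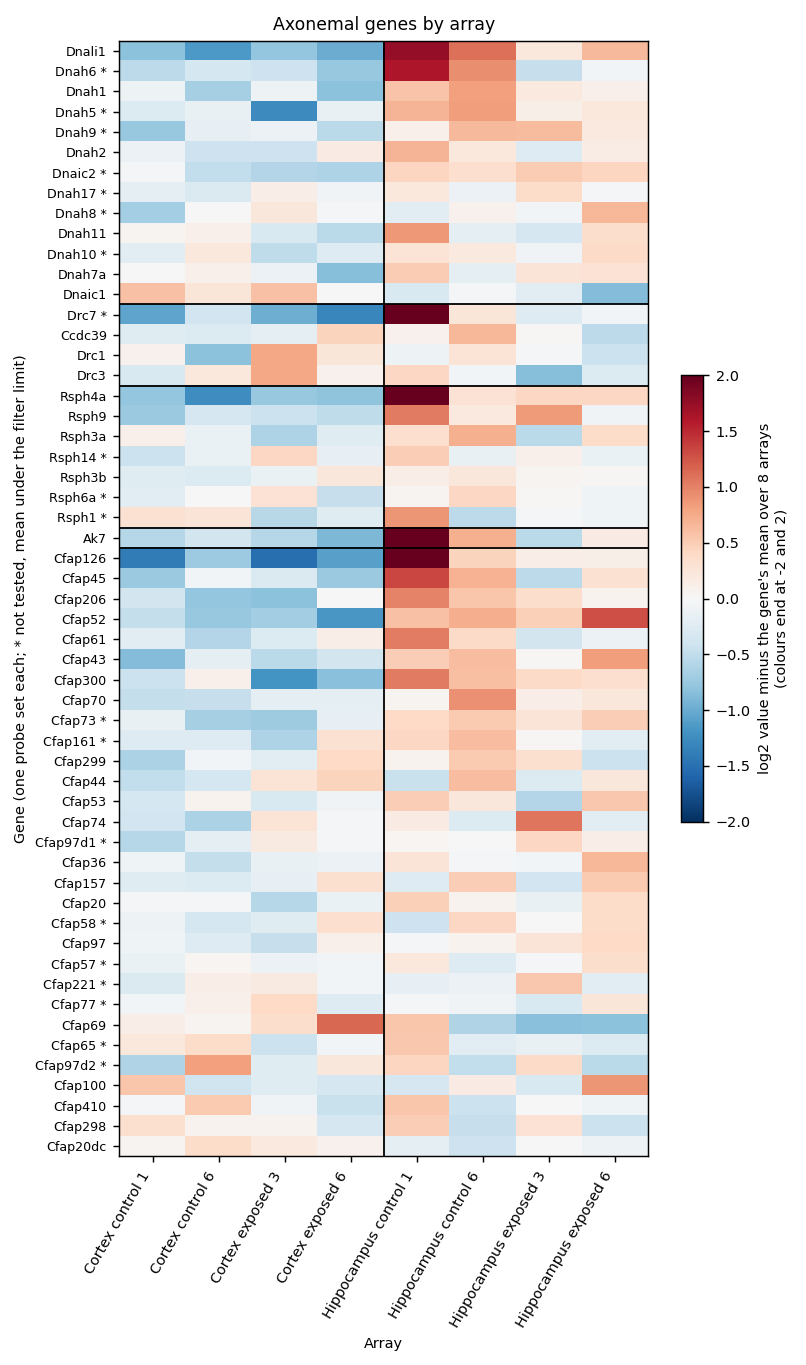
Log2 value minus the gene's own mean over 8 arrays for the 55 axonemal genes (rows) on each array (columns), with horizontal lines between dynein arm, regulatory complex and ruler, radial spoke, Ak7 and CFAP genes and a vertical line between the tissues; genes marked * were under the filter limit. The strongest red lies in hippocampus control 1, where the median deviation was 0.425, and cortex arrays are mostly blue.

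The first comparison set hippocampus against cortex in control mice. Axonemal genes were higher in hippocampus for 44 of 55 members (80.0%, against 52.5% of all probe sets), with a median log2 difference of 0.455 against 0.04 over all probe sets. Both hippocampus arrays lay above both cortex arrays for 33 members (60%, against 29.9% of all probe sets), and below them for 2 (3.64%, against 25.6%). limma called 10 of the 35 tested members, all higher in hippocampus, where 10.1% of the 14804 probe sets tested were called higher and 7.63% lower (17.7% in all). With no filter, 10 of 55 were called, against 6.59% of probe sets higher, and 8 of these were called with the filter as well. The filter on the mean over all arrays bears on that count, so the counts over all 55 stand before it. Here and below, fewer cells of a type and less RNA per cell cannot be told apart in bulk tissue.

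Among dynein arm genes, 12 of 13 had a higher mean in control hippocampus (against 52.5% of all probe sets), with a median difference of 0.635. Dnali1, a light intermediate chain gene of the inner arms, measured 3.52 and 3.19 on cortex control arrays 1 and 6 and 6.09 and 5.44 on hippocampus control arrays 1 and 6. Every hippocampus value exceeded every cortex value, and the difference was 2.41 (SE 0.33, 95% interval 1.69 to 3.13, limma adjusted p = 0.00039), with group means of 3.36 ± 0.23 and 5.77 ± 0.46 (SD, n = 2). Its cortex means, 3.36 in controls and 3.46 in exposed mice, lay under the filter limit of 3.937. It therefore entered the tests only through its hippocampus values, and a filter removing the lowest 50% left it out. Dnali1 passed in each of the 15 other fits that tested it, with differences of 1.92 to 2.74 for the tissues in controls. Dnah1, an inner arm heavy chain gene, measured 5.02 and 4.46 in control cortex and 5.70 and 5.95 in control hippocampus, a difference of 1.08 (SE 0.34, limma adjusted p = 0.043). It missed the threshold with no filter (adjusted p = 0.059) and after quantile normalization (0.077). Of the dynein genes under the filter limit, Dnah6, another inner arm heavy chain gene, measured 3.14 and 3.31 in control cortex and 5.28 and 4.59 in control hippocampus. With no filter it passed as well (1.71, SE 0.32, limma adjusted p = 0.0037).

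Of the outer arm genes, Dnah5 measured 3.30 and 3.43 in control cortex and 4.26 and 4.41 in control hippocampus, and Dnah9 2.51 and 3.11 against 3.37 and 3.92. The arrays of the 2 tissues did not overlap for either gene, and neither was tested with the filter (with no filter, Dnah5 had limma adjusted p = 0.091). Dnaic2, an outer arm intermediate chain gene, measured 3.79 and 3.33 against 4.24 and 4.15. Dnaic1, the partner chain, was the exception among dynein genes, with 6.92 and 6.58 in cortex and 6.03 and 6.30 in hippocampus, and it did not pass (-0.58, limma adjusted p = 0.25). Dnah7a has near-identical copies, Dnah7b and Dnah7c, so its signal may not be its own. It measured 4.21 and 4.33 against 4.73 and 4.04, and these arrays overlapped.

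Radial spoke genes were led by Rsph4a, which encodes a spoke head protein. It measured 5.90 and 5.42 in control cortex and 9.13 and 6.96 on hippocampus control 1 and 6, a difference of 2.38 (SE 0.52, limma adjusted p = 0.0082). Hippocampus control 1 was 2.17 above control 6, and without it the difference was 1.3 (adjusted p = 0.027). Rsph9, another spoke head gene, measured 5.53 and 5.94 against 7.31 and 6.47 and narrowly missed the threshold (1.16, SE 0.38, limma adjusted p = 0.053). Rsph3a and Rsph3b, which are close copies of each other, differed by 0.55 and 0.45 and did not pass. Rsph1 had a lower mean in hippocampus, where it measured 4.03 on control 1 and 2.63 on control 6.

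In the regulatory complex, Drc7 measured 2.82 and 3.49 in control cortex and 7.66 and 4.12 on hippocampus control 1 and 6. Both hippocampus values were above cortex, but the arrays of the hippocampus differed by 3.54, and with no filter the difference was 2.74 (SE 0.77, limma adjusted p = 0.035). Ccdc39, whose protein sets the repeat length of the axoneme, measured 7.01 and 6.98 against 7.35 and 7.93 and did not pass (0.64, limma adjusted p = 0.20). Drc1 measured 6.22 and 5.31 against 6.02 and 6.40 with overlapping arrays, and Drc3 differed by 0.22.

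Ak7, an adenylate kinase gene of motile cilia, measured 4.05 and 4.25 in control cortex and 6.66 and 5.33 in control hippocampus, a difference of 1.84 (SE 0.42, limma adjusted p = 0.010). Among the 30 CFAP genes, 21 had higher means in hippocampus, where 52.5% of all probe sets did. Of the CFAP genes above the filter limit 6 were called, all higher, where 10.1% of all probe sets tested were. Cfap126, which encodes Flattop, a protein of the base of multiciliated cells' cilia, had the greatest difference of the 35 tested members, at 3.30 (SE 0.80, 95% interval 1.55 to 5.04, limma adjusted p = 0.014). It measured 4.05 and 4.71 in cortex and 9.47 and 5.88 in hippocampus, and without hippocampus control 1 it differed by 1.5 (adjusted p = 0.026). Cfap52, a protein gene of the microtubule lumen, measured 4.59 and 4.31 against 5.66 and 5.80 (1.28, SE 0.34, limma adjusted p = 0.023). Cfap45 of the same site measured 3.69 and 4.37 against 5.77 and 5.13 (1.42, SE 0.39, limma adjusted p = 0.026).

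The spoke-associated genes Cfap206 and Cfap61 were called too. Cfap206 measured 6.09 and 5.68 in control cortex and 7.45 and 7.01 in control hippocampus (1.34, SE 0.34, limma adjusted p = 0.017). Cfap61 measured 4.94 and 4.56 against 6.17 and 5.53 (1.1, SE 0.33, limma adjusted p = 0.037), and missed the threshold with no filter (adjusted p = 0.051) and after quantile normalization (0.066). Cfap300, whose promoter is printed above, measured 8.03 and 8.56 against 9.49 and 9.06 (0.98, SE 0.29, limma adjusted p = 0.035), and after quantile normalization it missed the threshold (adjusted p = 0.0503). CFAP genes with little difference included Cfap298 (-0.18), Cfap100 (-0.17), Cfap20 (0.30) and Cfap36 (0.40), none of which passed. Cfap20dc had the lowest CFAP value of the comparison, at -0.52.

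The number of these calls fell most without cortex control 1, cortex control 6 or hippocampus control 1, and less without hippocampus control 6. Without cortex control 1, 3 members passed (Dnali1, Rsph4a and Cfap206), and without cortex control 6, 2 passed (Dnali1 and Cfap45). Without hippocampus control 1, 4 passed (Dnali1, Rsph4a, Cfap126 and Cfap70), and the other 7 members called with all arrays then had differences of 0.77 to 1.35. Without both arrays that were high in Ttr, 2 passed (Dnali1 and Cfap126) while the median over all 55 members was 0.57. Fits that lack a control array also called fewer probe sets in all. Dnah1 missed the threshold without hippocampus control 6 (0.96, adjusted p = 0.15), hippocampus exposed 3 (adjusted p = 0.057) or hippocampus exposed 6 (adjusted p = 0.056), and Cfap52 without hippocampus control 6 (1.21, adjusted p = 0.0830). The choroid plexus list had a median tissue difference of 2.75 in controls with 13 of 13 probe sets higher (against 52.5% of all probe sets). Of its 10 tested, 1 was called higher (Kl), against 10.1% of all probe sets tested. The part of this list in the axonemal result was not tested beyond these values.

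**Figure D2:**
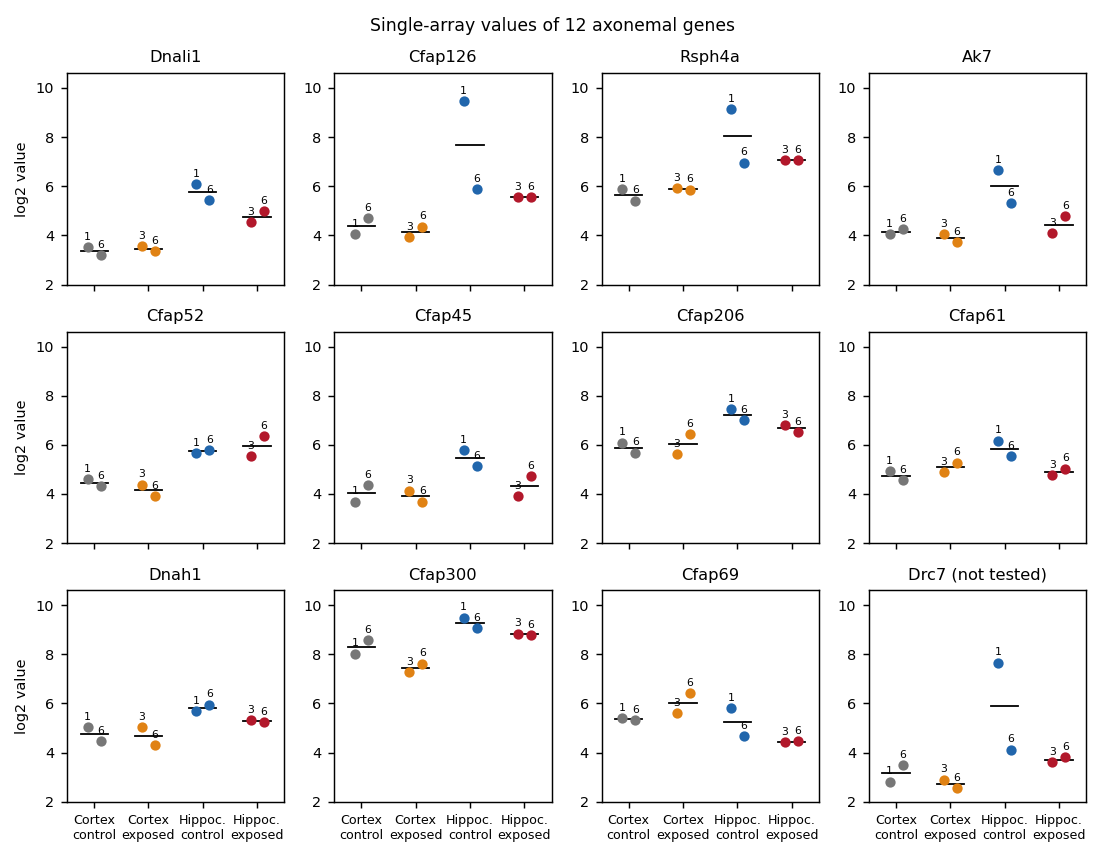
Log2 values on single arrays (points, with the label's number above) and group means (bars) for 12 axonemal genes in cortex control, cortex exposed, hippocampus control and hippocampus exposed. Hippocampus points lie above cortex points for Dnali1, Cfap126, Rsph4a and Cfap52, hippocampus control 1 stands far above control 6 for Cfap126 (9.47 and 5.88) and Drc7 (7.66 and 4.12), and Cfap69 runs the other way in exposed mice.

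The same question was asked of exposed mice, whose arrays are separate from those of the controls. Axonemal genes were higher in hippocampus for 41 of 55 members (74.5%, against 52.5% of all probe sets), with a median difference of 0.30 against 0.035 over all probe sets. Arrays did not overlap and were higher in hippocampus for 22 members (40.0%, against 29.4% of all probe sets) and lower for 6 (10.9%, against 25%). Of the 35 tested, 3 were called higher (background 9.25%) and 1 lower (background 5.22%, and 14.5% in all), so the share called higher was near the background.

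Cfap52 measured 4.38 and 3.91 on cortex exposed arrays 3 and 6 and 5.54 and 6.36 on hippocampus exposed arrays 3 and 6, a difference of 1.80 (SE 0.34, 95% interval 1.06 to 2.55, limma adjusted p = 0.0042). It passed in all 15 other fits that tested it. Cfap300 measured 7.26 and 7.62 in exposed cortex and 8.84 and 8.79 in exposed hippocampus (1.38, SE 0.29, limma adjusted p = 0.0076), and missed the threshold without cortex exposed 3 (adjusted p = 0.072). Dnali1 measured 3.56 and 3.35 against 4.55 and 4.98 (1.31, SE 0.33, limma adjusted p = 0.020). It was lost without cortex exposed 3 (adjusted p = 0.072), cortex exposed 6 (0.11) or hippocampus exposed 6 (0.13). These 3 genes passed in both arms.

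Cfap69, a gene of the central apparatus, was lower in exposed hippocampus. It measured 5.61 and 6.41 in exposed cortex and 4.43 and 4.45 in exposed hippocampus (-1.57, SE 0.40, limma adjusted p = 0.020), and the arrays were far apart. In controls it measured 5.4 and 5.32 in cortex and 5.82 and 4.67 in hippocampus, so that the tissues overlapped (-0.12, limma adjusted p = 0.88). The call was lost without cortex exposed 6 (-1.17, adjusted p = 0.16), hippocampus exposed 3 (adjusted p = 0.087) or hippocampus exposed 6 (adjusted p = 0.087).

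Other genes called in controls did not pass in exposed mice. Cfap126 measured 3.93 and 4.36 in exposed cortex and 5.57 and 5.56 in exposed hippocampus, with no overlap (1.42, SE 0.80, limma adjusted p = 0.27). Rsph4a measured 5.91 and 5.86 against 7.08 and 7.08 (1.20, SE 0.52, limma adjusted p = 0.15). In both genes the exposed arrays lay close together, and the SE is shared with the control arrays, which were far apart. Without hippocampus control 1, both passed at the same difference (adjusted p = 0.011 and 0.013), as they did without hippocampus control 6 (0.0098 and 0.013). Ak7 measured 4.05 and 3.72 against 4.08 and 4.78 and did not pass (0.54, SE 0.42, limma adjusted p = 0.43). Cfap61 measured 4.88 and 5.28 against 4.78 and 5.03, a lower mean in exposed hippocampus with overlapping arrays (-0.18). The choroid plexus list had a median of 0.195 between the exposed tissues, with 8 of 13 probe sets higher (against 52.5% of all probe sets) and none called.

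**Figure D3:**
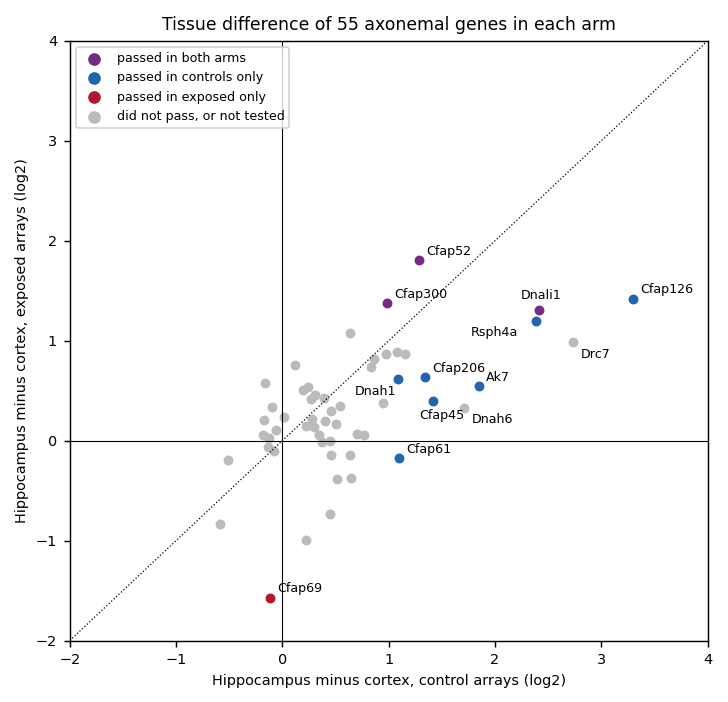
Log2 difference between hippocampus and cortex for the 55 axonemal genes in control arrays (horizontal axis) and exposed arrays (vertical axis), coloured by whether the gene passed the adjusted threshold in each arm, with a dotted line of equal difference. Dnali1, Cfap52 and Cfap300 passed in both arms, Cfap126 lies farthest right at 3.30 and Cfap69 lowest at -1.57.

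The third comparison asked whether clothianidin exposure changed axonemal transcripts in hippocampus. Members had lower means in exposed hippocampus for 39 of 55 (70.9%, against 50.4% of all probe sets; 16 were higher, against 49.0%), with a median difference of -0.22 against -0.005 over all probe sets. Both exposed arrays lay below both controls for 18 members (32.7%, against 15.3% of all probe sets) and above them for 4 (7.27%, against 15.7%). limma called none of the 35 tested members (background 0.00675%), and 5 were lower at an unadjusted p under 0.05, where 2.48% of probe sets were, and none higher, where 3.33% were. When known changes were simulated for exposure in hippocampus, the fit found 77% of those of 4-fold and 0% of those of 2-fold. The simulation changed probe sets picked at random and drew the noise of each array independently. Its shares need not hold for members whose control arrays were far apart.

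The members with the smallest p were Ak7, Dnali1, Cfap45, Cfap61 and Cfap126. Ak7 measured 6.66 and 5.33 on hippocampus control 1 and 6 and 4.08 and 4.78 on exposed 3 and 6 (-1.56, SE 0.42, unadjusted p = 0.0030 and adjusted p = 0.77 by limma). Dnali1 measured 6.09 and 5.44 against 4.55 and 4.98 (-1.0, SE 0.33, limma adjusted p = 0.78). In both genes the exposed arrays lay wholly below the controls. Cfap45 measured 5.77 and 5.13 against 3.90 and 4.73 (-1.14, SE 0.39), and Cfap61 6.17 and 5.53 against 4.78 and 5.03 (-0.94, SE 0.33), each with limma adjusted p = 0.81. Cfap126 measured 9.47 and 5.88 against 5.57 and 5.56 (-2.11, SE 0.80, limma adjusted p = 0.82), so that the difference lay mainly in control 1.

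By role, 8 of 13 dynein arm genes, 7 of 7 radial spoke genes, 4 of 4 regulatory complex and ruler genes and 19 of 30 CFAP genes had lower means in exposed hippocampus. Over all probe sets 50.4% did. The median differences of these roles, in that order, were -0.34, -0.24, -0.685 and -0.093. Against hippocampus control 6 alone, the spoke genes Rsph1 (0.46), Rsph9 (0.2), Rsph14 (0.13) and Rsph4a (0.12) were higher in exposed hippocampus. The other spoke genes, Rsph3a (-0.795), Rsph6a (-0.445) and Rsph3b (-0.19), were lower, as were Drc7, Drc3, Ccdc39 and Drc1. Dnah6, under the filter limit, measured 5.28 and 4.59 in controls and 3.20 and 3.61 in exposed mice, and with no filter it differed by -1.53 (SE 0.32, limma adjusted p = 0.57). Drc7 measured 7.66 and 4.12 against 3.62 and 3.81. Drc3 measured 5.26 and 4.79 against 3.99 and 4.57 (-0.74, limma adjusted p = 0.85), and Ccdc39 7.35 and 7.93 against 7.29 and 6.74 (-0.62, limma adjusted p = 0.87). Members with higher means in exposed hippocampus were Cfap74 (4.18 and 3.75 against 5.09 and 3.80, 0.48), Cfap100 (0.38), Cfap97 (0.30) and Cfap20dc (0.26) at the top of the tested genes, none of which passed.

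The size of the hippocampal difference depended on the control array. Hippocampus control 1 exceeded control 6 by at least 1 log2 unit for 7 members (12.7%, against 3.60% of all probe sets): Cfap126, Drc7, Rsph4a, Rsph1, Ak7, Cfap69 and Dnah11. Control 6 exceeded control 1 by that much for 1 member, Cfap44 (against 3.02% of all probe sets). Among the exposed arrays, 3 exceeded 6 by as much for Cfap74 (1 member, against 2.45%) and 6 exceeded 3 for Cfap100 and Cfap53 (2 members, against 2.11%). Against control 1 alone the members' median difference was -0.335 with 39 of 55 lower, where 11118 of all 22206 probe sets were lower (median -0.005). Against control 6 alone it was -0.19 with 32 of 55 lower, where 10781 of all 22206 probe sets were lower (median 0.01). Without hippocampus control 1, Cfap126 differed by -0.32, Drc7 by -0.41, Rsph4a by 0.12, Ak7 by -0.90, Cfap45 by -0.81 and Dnali1 by -0.68. Without hippocampus control 6, Cfap126 (-3.90, adjusted p = 0.00037), Rsph4a (-2.05, adjusted p = 0.021) and Ak7 (-2.23, adjusted p = 0.036) were called by limma. The choroid plexus list averaged 10.11 on control 1 and 4.65 on control 6. It was lower after exposure for 13 of 13 probe sets (against 50.4% of all probe sets, median -2.6), with none called. Its part in the axonemal difference was not tested beyond these values.

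**Figure D4:**
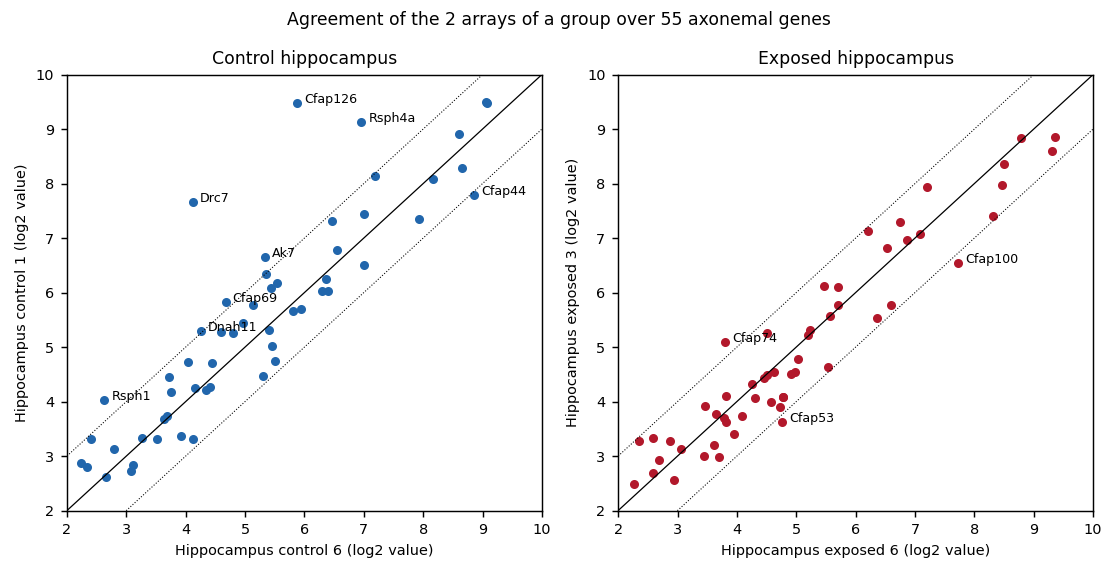
Log2 values of the 55 axonemal genes on the arrays of control hippocampus (left, control 1 against control 6) and exposed hippocampus (right, exposed 3 against exposed 6), with the line of equality and dotted lines 1 log2 unit away; genes at least 1 unit apart are named. Control 1 exceeds control 6 by at least 1 unit for 7 genes, up to 3.59 for Cfap126, while 3 genes are named in the exposed panel.

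In cortex, as many members had higher as lower means after exposure, within 1. Of the 55, 28 had higher means (against 48.4% of all probe sets) and 27 lower ones (against 50.9%), with a median of 0.015 against -0.01 over all probe sets. Arrays did not overlap for 10 members higher in exposed cortex (18.2%, against 17.5% of all probe sets) and 10 lower (18.2%, against 19.1%), shares near the background. limma called none of the 35 tested (background 0.00675%), with 2 higher and 1 lower at an unadjusted p under 0.05 (backgrounds 2.26% and 3.92%). The lower one was Cfap300, at 8.03 and 8.56 in control and 7.26 and 7.62 in exposed cortex (-0.86, SE 0.29, unadjusted p = 0.012 and adjusted p = 0.74 by limma). The higher ones were Drc1, at 6.22 and 5.31 against 6.90 and 6.37 (0.87, SE 0.36, limma adjusted p = 0.79), and Cfap44, a gene of the tether of inner arm dynein, at 7.74 and 7.88 against 8.51 and 8.69 (0.79, SE 0.34, limma adjusted p = 0.80). Of the members called between the control tissues, Cfap300 had the largest difference here. Others differed less, among them Cfap61 (0.33, SE 0.33), Cfap52 (-0.305, SE 0.34), Dnali1 (0.10, SE 0.33), Cfap126 (-0.24, SE 0.80), Rsph4a (0.23, SE 0.52) and Ak7 (-0.26, SE 0.42).

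Whether exposure acted differently in the tissues was tested as the difference of the differences, which is also the difference of the tissue effects between the arms. Its median over 55 members was -0.20 against 0.015 over all probe sets, with 37 members below 0 (67.3%, against 48.5% of all probe sets) and 18 above (against 51.0%). limma called none of the 35 tested and none of all 14804 (background 0.0%), and 7 members had an unadjusted p under 0.05, all below 0, where 1.47% of probe sets did and 1.99% were above 0. These were Cfap61 (-1.28, SE 0.46), Cfap69 (-1.46, SE 0.56), Drc3 (-1.22, SE 0.51), Dnali1 (-1.1, SE 0.47), Drc1 (-1.18, SE 0.51), Ccdc39 (-1.02, SE 0.46) and Ak7 (-1.3, SE 0.60), each with limma adjusted p = 0.998. For none of the members was the tissue difference therefore shown to differ between the arms. Without hippocampus control 6, Cfap126 passed (-3.67, adjusted p = 0.0086).

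Other genes of the cilium were read from lists that were drawn up with earlier results of these data known. Among further genes of the motile axoneme, 37 of 41 were measured, and 33 were higher in control hippocampus (against 52.5% of all probe sets, median 0.68). Of 27 tested, 6 were called higher and 1 lower, against 10.1% and 7.63% of all probe sets tested. Capsl, which encodes a calcium-binding protein, measured 4.15 and 4.0 in control cortex and 6.50 and 6.02 in control hippocampus (2.19, SE 0.31, limma adjusted p = 0.00053). The one lower gene, named after its value was seen, was Ccdc65, a regulatory complex gene at 6.64 and 6.31 in cortex and 5.45 and 4.86 in hippocampus (-1.32, SE 0.34, limma adjusted p = 0.018). In exposed hippocampus 29 of the 37 had lower means (against 50.4% of all probe sets, median -0.245) and none was called (background 0.00675%). Capsl differed by -1.04 (SE 0.31), Lrriq1 by -0.91 (SE 0.34), the nucleoside diphosphate kinase gene Nme5 by -1.06 (SE 0.39) and the dynein light chain gene Dynlrb2 by -0.93 (SE 0.37), with limma adjusted p of 0.77 to 0.84.

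Genes of the central apparatus (9 measured, 4 tested) had a median of 0.43 between control tissues with 1 called higher, Spef2, and -0.16 for exposure in hippocampus with none called. Genes for dynein arm assembly and docking (16 measured, 8 tested) had medians of 0.075 and -0.097, with 1 called higher between control tissues and none for exposure. Intraflagellar transport and primary cilium genes, which serve cilia of all kinds, had medians of 0 and -0.035, with 2 of 33 called higher and 2 lower between control tissues. Cytoplasmic dynein genes had medians of -0.36 and 0.08, with 3 of 13 called lower in control hippocampus. For exposure in hippocampus none of these was called. Over all probe sets tested, 10.1% were called higher and 7.63% lower between control tissues, and 0.00675% were called for exposure in hippocampus.

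Of the transcription factors of multiciliated cells, no probe set named Foxj1 was analysed here. Rfx3, an X-box binding factor, measured 9.28 and 9.57 in control cortex and 12.37 and 12.70 in control hippocampus (3.11, SE 0.26, limma adjusted p = 9.3e-06), and 12.52 and 12.97 in exposed hippocampus. Gmnc, a coiled-coil factor at the start of the multiciliated program, was the other one called higher (2.13, SE 0.42, limma adjusted p = 0.0042), while the cell cycle factor E2f4 was called lower (-0.98, SE 0.30, limma adjusted p = 0.042). Of 7 tested, 2 were thus called higher and 1 lower, against 10.1% and 7.63% of all probe sets tested. Exposure in hippocampus gave none called in the list, with Rfx4 at -0.78 (SE 0.28), Rfx2 at -0.69 (SE 0.31) and Rfx3 at 0.21 (SE 0.26).

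Ependymal markers outside the rule, 7 of which also stand in the motile axoneme list, averaged 5.70 on hippocampus control 1, 5.27 on control 6, 5.31 and 5.12 on the exposed hippocampus arrays and 4.75 to 4.99 in cortex. Of 11 measured, 8 were higher in control hippocampus (against 52.5% of all probe sets, median 0.78). Of 7 tested, 3 were called higher, against 10.1% of all probe sets tested. In exposed mice 5 were higher and 6 lower in hippocampus (against 52.5% and 47.2% of all probe sets), with a median of -0.02. Of 7 tested there, 2 were called higher, against 9.25% of all probe sets tested. For exposure in hippocampus 7 of the 11 were lower (against 50.4% of all probe sets), with a median of -0.245 and none called. Other marker lists had medians for exposure in hippocampus of -0.025 (astrocytes), -0.1 (microglia), -0.11 (oligodendrocytes), -0.1 (meninges and fibroblasts), 0.278 (endothelium), 0.445 (cortical neurons) and -0.04 (hippocampal neurons), with none called. Their part in the axonemal values was not tested.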

How the data were processed

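Total RNA from 8 samples was hybridised to Affymetrix arrays. The deposited log2 values, 1 for each probe set and array, were normalized by the authors, and the submitters' processing notes name RMA. Its version, the summary level, whether all arrays were normalized together and the build are not stated by any source at hand, and log2 is taken from the usual output of RMA and the range of the values. Platform annotation gave 1 gene symbol for 19572 of 22206 probe sets, none for 2634 and several for 0, and all 55 members matched RefSeq by Entrez identifier.

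A filter on the mean of all 8 arrays removed the lowest 33.3% of probe sets (limit 3.937), and 14804 were tested with limma 3.58.1 in R 4.3.3, with 1 mean per tissue and arm, a mean-variance trend, two-sided tests and Benjamini-Hochberg adjustment over all probe sets tested (threshold 0.05). Residual and prior degrees of freedom were 4 and 7.92. Counts and medians of members use all 55 and carry no test. No background or detection value was used, so levels near the limit are not shown to be above background, and precision is limited by having 2 arrays a group. The fit was tested on simulated data with independent noise and 200 probe sets changed at random. It found 71.5% (cortex exposure) and 77% (hippocampus exposure) of changes of 4-fold, and 0% of those of 2-fold in each.

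The members, lists and tests were chosen with earlier results of these data known. Genes given with single-array values were taken from those past the threshold and those with the smallest p in each direction (up to 8 per comparison). By rule the best known genes of the arms, spokes and regulatory complex and Cfap126 were added. For some, among them Cfap206, Dnah1, Rsph9, Dnah5 and Dnah9, the text gives the control arrays only. Dnah6, Drc7, Rsph3a, Cfap20dc, Spef2, Kl, Gmnc, E2f4, Bcl11b and Ccdc65 were named after their values were seen. Alternatives were no filter or a stricter one (50%), quantile normalization, no trend, array weights, replicate blocks, each array left out, and both arrays high in Ttr left out.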

Additional observations from a re-analysis of the deposited data

Results flagged for a closer look

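For 4 members the exposed arrays lay wholly on one side of the controls in cortex and wholly on the other side in hippocampus. The share of all probe sets with this pattern was not computed, so the count carries no result about the members. Cfap69 was higher in exposed cortex and lower in exposed hippocampus, a difference of the effects of -1.46 (SE 0.56, limma unadjusted p = 0.023, adjusted p = 0.998). Ccdc39 showed the same pattern with -1.02 (SE 0.46, limma unadjusted p = 0.047, adjusted p = 0.998), and so did Rsph3b with -0.45 (limma adjusted p = 0.998). Dnaic2 ran the other way, with -0.34 in exposed cortex and 0.095 in exposed hippocampus, a difference of the effects of 0.44. Its lower exposed hippocampus array (4.25) lay just above its higher control array (4.24). Dnaic2 was under the filter limit, so its difference was not tested in the fit with the filter. No difference passed the adjusted threshold.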

How the results depend on the processing

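No called result changed direction in the settings run, while the members' median for cortex exposure, near 0, and uncalled values such as Rsph4a for hippocampus exposure did change sign. Over the settings run, the members' median ranged from -0.03 to 0.09 for exposure in cortex and from -0.335 to -0.19 for exposure in hippocampus. For the tissues it ranged from 0.4 to 0.57 in controls and from 0.205 to 0.43 in exposed mice. For the difference of the exposure effects it ranged from -0.39 to -0.185. Quantile normalization or no trend each left 0 probe sets called for exposure in cortex and 0 in hippocampus, against 1 in each. After quantile normalization 7 members were called in control tissues, all among the 10, without Cfap300, Cfap61 and Dnah1. Array weights gave 2 in cortex and 0 in hippocampus, and leaving out both arrays high in Ttr gave 3 and 0. Without those arrays, control tissues gave 1143 probe sets (2620 with all arrays), 2 members (10) and a members' median of 0.57 (0.455). A stricter filter, removing the dimmer 50%, kept 18 members, of which 6 were called in controls and 1 in exposed mice. Leaving out 1 array at a time gave 0 to 2 probe sets for cortex exposure, 0 to 53 for hippocampus exposure (0 to 3 members) and 0 to 30 for the difference between tissues (0 to 1 member, median -0.39 to -0.185). It gave 1287 to 2522 probe sets and 2 to 11 members for control tissues, and 1073 to 2434 and 2 to 6 for exposed ones. A group left with 1 array was assumed to vary like the others. With the number as a replicate block (random), 13 members were called in controls and 4 in exposed mice, with 2 probe sets for cortex exposure and 3 for the difference. As a fixed block, 12 and 5 were called. Arrays of the same number deviated together at r = -0.001 in controls and 0.276 in exposed mice, and the labels do not tie them to 1 mouse. The exposure arms share only number 6, so no fixed block was fitted there. The causes of these changes were not tested. With 2 arrays a group and no detection values, small changes and low genes are poorly resolved.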
